A study of Mus musculus with 4 samples.

Results

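Respiratory complex I is described here through the nuclear genes whose symbol starts with Nduf, which encode its subunits and part of its assembly machinery. Members were all probe sets (groups of short probes that together measure 1 transcript) to which the array's annotation gives a single symbol starting with Nduf. They number 88 of the 45037 probe sets tested and stand for 44 of 18193 genes, and the choice used no measured value. The data are transcript levels on 4 single-colour Affymetrix arrays of mouse heart. All hearts came from C57B6 mice aged 3.6 months and sampled at baseline. The wild-type group has 2 arrays, and the other 2 hold hearts of GSK-3alpha S21A knock-in mice, in which alanine takes the place of a serine that inhibitory kinases phosphorylate in glycogen synthase kinase 3 alpha. The labels do not tie an array to an animal, or say whether hearts were pooled, so n counts arrays, and a p-value reflects how far these samples spread, which may be technical variation alone. The substitution is named without a Cre or a promoter that would limit it to 1 cell type.

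Complex I takes electrons from NADH, passes them to ubiquinone and pumps protons across the inner mitochondrial membrane. Its peripheral arm holds the NADH-oxidising part, called here the electron input arm, and the ubiquinone-binding part, while its membrane arm carries the proton channels. Core subunits do the catalysis, accessory subunits surround and stabilise them, and assembly factors build the complex without remaining in it. Heart muscle is rich in mitochondria and draws most of its ATP from this chain.

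A listed gene without a probe set of 1 symbol is no member, and the 7 complex I genes of the mitochondrial genome were not analysed here. Ndufs6 and Ndufa11 were measured only by probe sets shared with Ndufs6b and Ndufa11b. These differed by −0.00 for Ndufs6, and by −0.03 and −0.11 for Ndufa11. For 22 genes 1 probe set was a member, and for the other 22 several were. Each gene is represented by its brightest probe set, that with the highest mean over the 4 arrays. Values are on the log2 scale, so a difference of 1 is a doubling, and differences are knock-in minus wild-type.

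Across all probe sets, limma called 3 (0.00666% of those tested) at an adjusted p under 0.05, and by representative probe sets 2 genes (0.011%). Gsk3a, the targeted gene, read 11.16 and 11.08 in wild-type and 10.62 and 10.80 in knock-in hearts, a difference of −0.42 (limma adjusted p = 0.458), which does not check the labels since a point substitution need not alter transcript level. The 12 markers of heart muscle cells had array medians of 14.51 and 14.52 in wild-type and 14.61 and 14.48 in knock-in hearts. Of 16 listed liver markers 13 were measured, and each of them read higher in the knock-in group. None of them passed the adjusted threshold, and all 13 had an unadjusted p under 0.05. Their array medians were 6.37 and 5.66 in wild-type and 8.85 and 7.34 in knock-in hearts. Hepatocytes also express Nduf genes, and the part of the liver transcripts in the differences below was not tested. Markers of other cells had median differences of 0.17 for fibroblasts, 0.18 for endothelium, 0.10 for macrophages, −0.32 for lymphocytes and −0.19 for skeletal muscle, with 0 called by limma at the adjusted threshold. The lymphocyte markers had array medians of 6.69 and 6.12 in wild-type and 6.11 and 6.07 in knock-in hearts. Signals of the skeletal muscle markers were low, with a median level of 4.99. At an unadjusted p under 0.05, 1 of 8 fibroblast, 2 of 8 endothelial and 1 of 8 macrophage markers were higher. Of 5 lymphocyte markers 1 was lower, and 10.2% of all genes had such a p in either direction. In sign, 8 fibroblast, 7 endothelial, 7 macrophage and 0 lymphocyte markers were higher, against 46.9% of all genes. Medians for smooth muscle, adipocyte and red blood cell markers were −0.01, 0.06 and 0.02, with 0 at an unadjusted p under 0.05. The 3′ minus 5′ signal of the Gapdh control, a measure of RNA integrity, was 0.62, 0.61, 0.54 and 0.76 in the same order of arrays.

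None of the 44 genes passed the test in either direction, and their differences were small. By representative probe set they lay between −0.14 for Ndufaf5 and 0.25 for Ndufaf7, with a median of 0.01, against −0.01 over all genes. In folds, this range runs from 0.905 to 1.19. In whole hearts, fewer cells of a type and less RNA per cell cannot be told apart. The absolute difference was under 0.1 for 35 of the 44 genes (79.5%), against 40.6% of all genes, and it reached 0.2 for 1, Ndufaf7, against 29.1% of all genes. The lowest adjusted p of a representative probe set was 0.467 (limma, Ndufaf7). At an unadjusted p under 0.05 there were 0 of the 44, against 10.2% of all genes, and 2 of the 88 probe sets (2.27%), both higher, against 10.7% of all probe sets, of which 5.07% were higher and 5.62% lower.

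The knock-in arrays lay wholly above the wild-type arrays for 10 of the 44 genes and wholly below for 8, together 40.9%, against 22.5%, 24.1% and together 46.5% of all genes. For 29 of the 44 genes (65.9%) the arrays of at least 1 genotype lay farther apart than the means of the genotypes, against 68.5% of all genes. The median gap between the wild-type arrays was 0.06 and that between the knock-in arrays 0.04, against 0.14 and 0.11 over all genes. Most members gave bright signals, with a mean of at least 13 for 28 genes. Of those 28, 89.3% differed by under 0.1, with a median absolute difference of 0.03, while among all 254 genes as bright it was 76.8%, with a median of 0.05. At an unadjusted p under 0.05, 2 of the 254 were higher and 2 lower, and of the 28 none in either direction. This brightness limit was chosen after the values had been seen.

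The sign of these differences depended on how the arrays were scaled. In the deposited values 24 of the 44 genes were higher and 20 lower in the knock-in hearts, or 54.5% higher against 46.9% of all genes. With the arrays shifted to 1 median it was 40 higher and 4 lower, or 90.9% higher against 59.9% of all genes. That shift moved every difference by the same amount. Before it, the array medians over all probe sets were 6.23 and 6.19 in wild-type and 6.16 and 6.14 in knock-in hearts. After quantile normalisation it was 14 and 30, or 31.8% against 44.8%, and after cyclic loess 11 and 33, or 25% against 48%. The median of the members moved with it, from 0.01 to 0.07, −0.02 and −0.04, and that of all genes lay at −0.01, 0.05, −0.02 and −0.01.

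The 95% interval of a member's difference had a median half-width of 0.25, and the intervals of all 44 genes together spanned −0.39 to 0.50, or folds of 0.761 to 1.42. For 22 genes the whole interval lay within 0.3 of no difference. When the prior variance was allowed to follow the signal level, the median half-width fell to 0.14 and 1 gene, Ndufb10, had an unadjusted p under 0.05, against 10.5% of all genes in that fit, with none passing the adjusted threshold (lowest limma adjusted p = 0.451). A p that misses the threshold does not show that the genotypes are alike, and the intervals give the sizes that these 4 arrays leave possible.

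**Figure D1:**
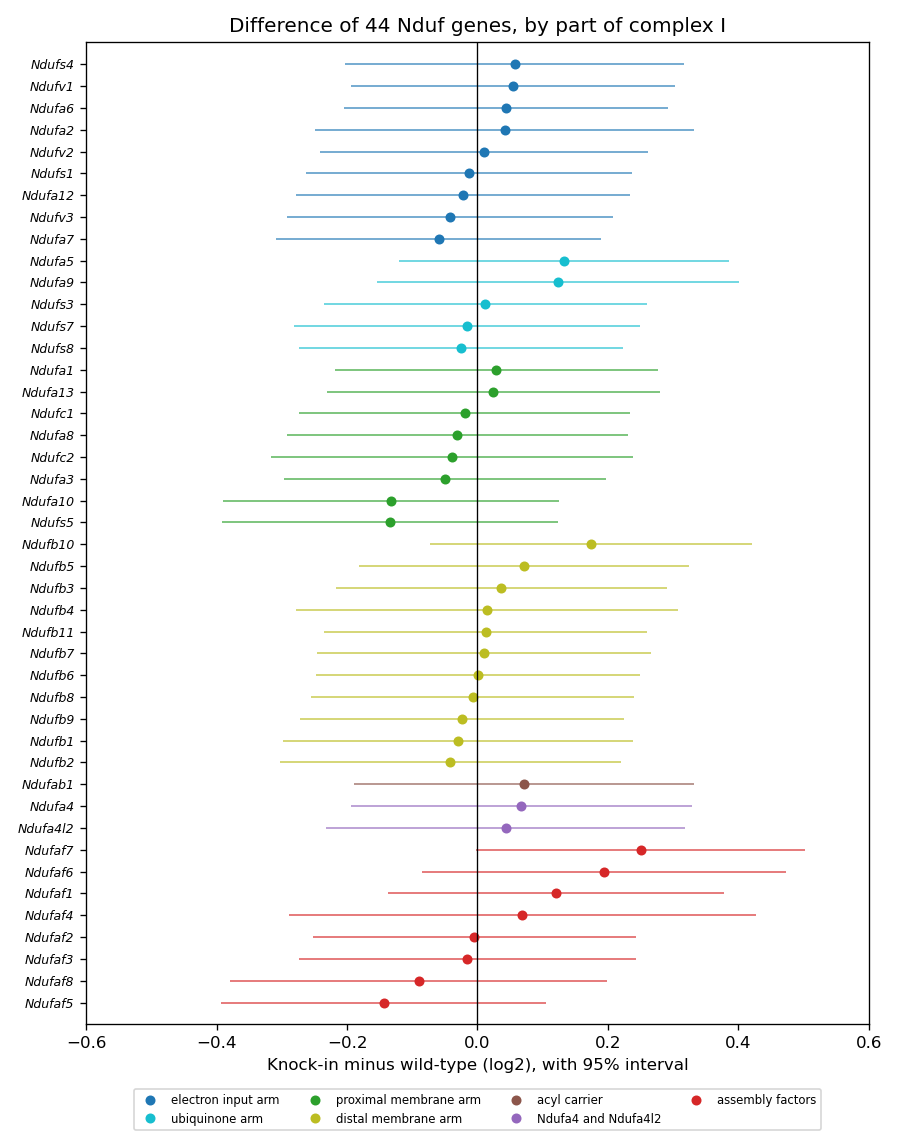
Difference between knock-in and wild-type hearts (log2, horizontal axis) for each of 44 Nduf genes by its brightest probe set, coloured and grouped by the part of complex I; points are differences of 2 against 2 arrays and lines are limma 95% intervals. Every interval drawn includes 0, and assembly factors reach both ends of the range, from −0.14 for Ndufaf5 to 0.25 for Ndufaf7.

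Promoters of 39 of the 44 genes were found in a RefSeq table (build GRCm38.p6) that gives 250 bases before and 50 bases after each start listed for a gene. They were searched on both strands for letters typical of factors that control nuclear genes of respiration. A gene counted as a match if any of its listed starts had the letters, so a gene with more starts had more sequence searched. The letters GCGCANGCG, the core of the motif of nuclear respiratory factor 1 (NRF1), were in the promoters of 8 of 39 members (20.5%), against 7.03% of all 27025 genes in the table and 9.63% of protein-coding genes. This form was chosen after the matches of a longer form with 10 letters had been seen, which 7 members held (17.9%), against 5.19% of all genes and 7.17% of protein-coding genes. The letters AAGATGGCG, of the factor YY1, were in 5 (12.8%), against 1.64% of all and 2.14% of protein-coding genes. The letters AAGGTCA, of the estrogen-related receptors, were in 3 (7.69%), against 5.38% and 4.73%. None of these motifs is contained in another, and a match describes the sequence and not binding.

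Genes with the NRF1 letters stood at both ends of the differences. The bases before the start, the one farthest upstream if several were listed, are printed for 3 of them. These are Ndufa5 and Ndufb10, which differed by 0.13 and 0.17, and Ndufs5, which differed by −0.13. Capitals mark the matches, and sequences run 5′ to 3′ along the minus strand, on which these genes lie. In Ndufa5 the NRF1 letters begin 26 bases before the start, in Ndufs5 98 bases before it, and in Ndufb10 2 bases before it, so that only the first part of that match is shown. In Ndufs5 the estrogen-related receptor letters, read on the other strand, begin 228 bases before the start.
Ndufa5, chr6:24527691-24527940: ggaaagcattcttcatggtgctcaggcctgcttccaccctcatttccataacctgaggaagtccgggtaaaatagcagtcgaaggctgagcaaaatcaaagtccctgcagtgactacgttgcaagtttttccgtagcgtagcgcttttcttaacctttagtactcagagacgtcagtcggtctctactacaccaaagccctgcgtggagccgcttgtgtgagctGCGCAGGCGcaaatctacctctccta
Ndufs5, chr4:123718187-123718436: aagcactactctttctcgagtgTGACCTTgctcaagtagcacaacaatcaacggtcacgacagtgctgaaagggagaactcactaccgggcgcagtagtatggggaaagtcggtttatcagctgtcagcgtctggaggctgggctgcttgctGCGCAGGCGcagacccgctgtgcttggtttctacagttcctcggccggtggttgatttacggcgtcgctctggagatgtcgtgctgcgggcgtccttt
Ndufb10, chr17:24724424-24724673: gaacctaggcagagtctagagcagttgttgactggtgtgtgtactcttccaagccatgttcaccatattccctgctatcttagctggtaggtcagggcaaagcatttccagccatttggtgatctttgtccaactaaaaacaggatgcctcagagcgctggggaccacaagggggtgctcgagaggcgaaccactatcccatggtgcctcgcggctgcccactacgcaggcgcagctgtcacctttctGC
The 8 genes with the NRF1 letters differed by −0.14 to 0.17, with a median of 0.03, against 0.00 for the members whose promoters lacked them. The 5 with the YY1 letters lay between −0.09 for Ndufaf8 and 0.12 for Ndufa9, and the 3 with the receptor letters between −0.13 for Ndufs5 and 0.01 for Ndufb4.

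Among the electron input arm, 9 of 10 listed genes were measured and all differed by under 0.1, from −0.06 to 0.06. Ndufv1, which binds NADH and the flavin cofactor, read 13.61 and 13.58 in wild-type and 13.63 and 13.66 in knock-in hearts. The knock-in arrays were the higher ones, by 0.05 (95% interval −0.20 to 0.30, limma adjusted p = 0.850), and the 3 probe sets of the gene differed by 0.05 to 0.06. Ndufv2, a core subunit with an iron-sulphur cluster beside the flavin, read 13.67 and 13.65 against 13.70 and 13.63, a difference of 0.01 with overlapping groups. Ndufs1, the largest core subunit and carrier of several iron-sulphur clusters, read 13.33 and 13.29 against 13.28 and 13.32, a difference of −0.01 with overlapping groups.

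Of the accessory subunits of this arm, Ndufa7 had the lowest difference. It read 13.46 and 13.48 in wild-type and 13.39 and 13.43 in knock-in hearts, with no overlap and a difference of −0.06 (95% interval −0.31 to 0.19, limma adjusted p = 0.831). Its 5 probe sets differed by −0.06 to 0.02. Ndufs4, whose loss in mice is a model of mitochondrial encephalopathy, read 12.32 and 12.19 against 12.31 and 12.32, and Ndufv3 read 14.37 and 14.32 against 14.28 and 14.32. These 2 genes differed by 0.06 and −0.04. The others, Ndufa2, Ndufa6 and Ndufa12, differed by 0.04, 0.04 and −0.02.

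The ubiquinone arm was measured by 5 genes. In the deposited values and by brightest probe set, its measured core subunits lay closer to 0 than its accessory ones. Ndufs3 read 13.58 and 13.57 in wild-type and 13.58 and 13.60 in knock-in hearts, a difference of 0.01. Ndufs7, which holds the last iron-sulphur cluster before ubiquinone, read 13.66 and 13.57 against 13.54 and 13.66, a difference of −0.02. Its second probe set differed by 0.07 without overlap. Ndufs8 read 13.74 and 13.77 against 13.72 and 13.74 by its brightest probe set, a difference of −0.03, and its 6 probe sets spanned −0.13 to 0.07. By brightest probe set the groups overlapped for Ndufs3 and Ndufs7, while for Ndufs8 the higher knock-in array lay just under the lower wild-type array.

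Both accessory subunits of the ubiquinone arm were among the 5 highest differences of all members. Ndufa5 read 13.14 and 13.06 in wild-type and 13.23 and 13.23 in knock-in hearts, with no overlap and a difference of 0.13 (95% interval −0.12 to 0.39, limma adjusted p = 0.617). Its second probe set differed by 0.07. Ndufa9, which sits at the junction of the arms, read 13.21 and 13.40 against 13.43 and 13.42, a difference of 0.12 (95% interval −0.15 to 0.40, adjusted p = 0.671). The knock-in values lay only just above wild-type replicate 2, and the difference was 0.03 without wild-type replicate 1 and 0.22 without wild-type replicate 2.

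In the proximal membrane arm, the part next to the peripheral arm, 8 of 9 listed genes were measured, with a median of −0.04. This median was 0.03 with the arrays shifted to 1 median, −0.05 after quantile normalisation and −0.08 after cyclic loess. The 2 lowest genes of this arm were also among the 5 lowest of all members. Ndufs5 read 12.81 and 12.90 in wild-type and 12.76 and 12.68 in knock-in hearts, with no overlap and a difference of −0.13 (95% interval −0.39 to 0.12, limma adjusted p = 0.620). A probe set that the annotation gives to both Ndufs5 and its pseudogene, and so is no member, read 11.51 and 11.69 against 12.09 and 12.00. It differed by 0.45, in the opposite direction, and did not pass the test (limma adjusted p = 0.458).

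Ndufa10, an accessory subunit of the nucleoside kinase fold, read 13.81 and 13.84 in wild-type and 13.64 and 13.75 in knock-in hearts. The groups did not overlap, the difference was −0.13 (95% interval −0.39 to 0.12, limma adjusted p = 0.624) and the second probe set of the gene differed by −0.12. The other proximal genes lay between −0.05 for Ndufa3 and 0.03 for Ndufa1, which is X-linked. The 3 probe sets of Ndufa3 were all lower, by −0.05, −0.08 and −0.17, the last of them dim, that is with a mean under 6. Ndufa13, also known as the cell death gene Grim19, differed by 0.02, Ndufa8 by −0.03, Ndufc1 by −0.02 and Ndufc2 by −0.04. The second Ndufc1 probe set differed by 0.14 without overlap. Further Ndufc2 probe sets differed by 0.14 without overlap, and by 0.03 and −0.17 with overlap, the last of them dim. A pair of probe sets that the annotation shares between Ndufa13 and Yjefn3, and that are no members, differed by −0.30 and −0.21 without overlap. Their means were 5.29 and 8.46, and neither passed the test (limma adjusted p = 0.490 and 0.554).

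The distal membrane arm, the outer end of the proton-pumping part, had 11 of 12 listed names measured, with a median of 0.01 and a range from −0.04 to 0.17. Ndufb10, the highest of all subunit genes, read 12.80 and 12.81 in wild-type and 12.98 and 12.97 in knock-in hearts. The arrays of each genotype lay within 0.02 of each other and the groups did not overlap, with a difference of 0.17 (95% interval −0.07 to 0.42, limma adjusted p = 0.532). It has 1 probe set. The difference was 0.23 with the arrays shifted to 1 median, and 0.11 after quantile normalisation and 0.12 after cyclic loess.

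Among the other distal genes, Ndufb5 read 13.83 and 13.90 against 13.96 and 13.91 by its brightest probe set, a difference of 0.07. Ndufb6, Ndufb7, Ndufb8 and Ndufb11 lay between −0.01 and 0.01. Ndufb9 and Ndufb2 differed by −0.02 and −0.04, Ndufb1 by −0.03 and Ndufb3 by 0.04. For Ndufb4 the only probe set with 1 symbol was dim, at 4.64 and 4.53 against 4.50 and 4.71, with overlapping groups. A pair of probe sets that the annotation shares between Ndufb4, Ndufb4b and Ndufb4c, and that are no members, had means of 13.43 and 13.33 and differed by 0.02 and 0.03.

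Ndufab1, the mitochondrial acyl carrier protein, serves complex I and fatty acid synthesis in mitochondria, and its 5 probe sets disagreed more than those of any other member. The brightest read 13.80 and 13.92 in wild-type and 13.96 and 13.91 in knock-in hearts, a difference of 0.07 with overlapping groups. A probe set of mean level 6.79 read 6.61 and 6.60 against 6.86 and 7.09, and its difference of 0.37 (95% interval 0.08 to 0.66) was the largest of the 88 but did not pass the test (limma adjusted p = 0.458). The 3 others, with means of 9.16, 7.71 and 5.26, differed by −0.12, −0.18 and −0.15, the last of them dim. A probe set shared with Ndufab1-ps, and so no member, had a mean of 13.06 and differed by 0.13 with overlapping groups. Ndufab1 was the only gene whose probe sets spanned over 0.5, from −0.18 to 0.37.

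Ndufa4 was named as a complex I subunit and is now placed with cytochrome c oxidase, while its relative Ndufa4l2 is known as a gene induced by low oxygen. Ndufa4 read 14.08 and 14.20 in wild-type and 14.22 and 14.20 in knock-in hearts, a difference of 0.07 (95% interval −0.19 to 0.33). Ndufa4l2 read 9.63 and 9.48 against 9.54 and 9.66, a difference of 0.04 (95% interval −0.23 to 0.32). The groups overlapped for both genes, and neither passed the test (limma adjusted p = 0.816 and 0.897).

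**Figure D2:**
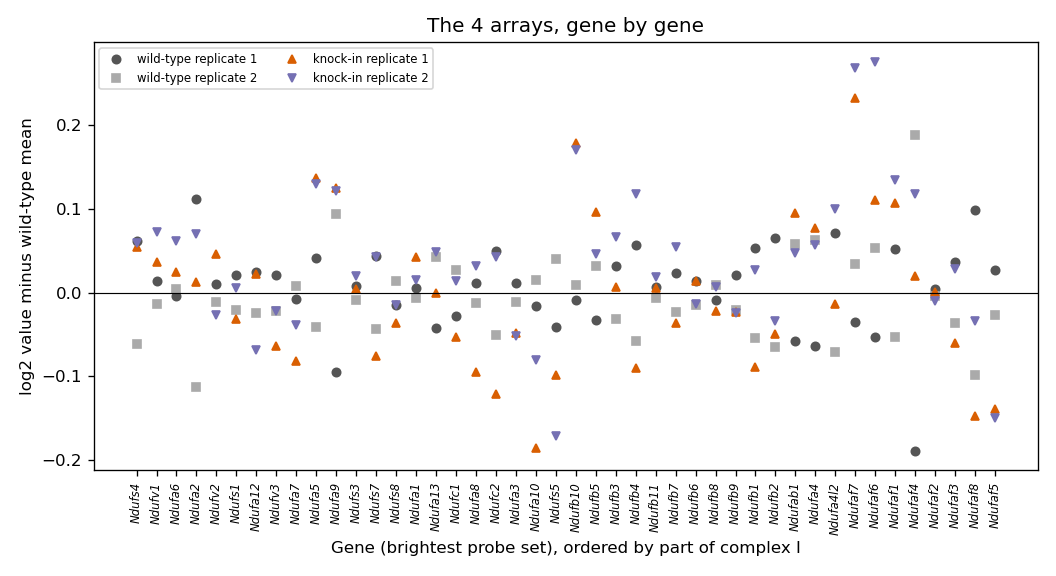
Log2 value of each array minus the wild-type mean of the gene (vertical axis) for the 44 Nduf genes by their brightest probe sets, in the order of the parts of complex I; each symbol is 1 array. The knock-in symbols lie together above both wild-type arrays for Ndufb10 and Ndufaf7, while the wild-type arrays lie farthest apart for Ndufaf4.

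Of the 8 assembly factors named Ndufaf, 4 were higher and 4 lower, with a median absolute difference of 0.11 against 0.04 over all members, a contrast that was not tested. Their array medians ran from 9.95 to 10.15, against 13.47 to 13.52 over all members. With the arrays shifted to 1 median 6 of the 8 were higher, and after quantile normalisation or cyclic loess 3 were. Ndufaf7, a mitochondrial methyltransferase needed for complex I assembly, read 8.49 and 8.56 in wild-type and 8.75 and 8.79 in knock-in hearts. The groups did not overlap and the difference of 0.25 was the largest among representative probe sets (95% interval −0.00 to 0.50, limma adjusted p = 0.467). It lay between 0.22 and 0.29 with 1 array left out, and at 0.16 after quantile normalisation.

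Ndufaf6, needed for early assembly steps, read 9.38 and 9.49 in wild-type and 9.55 and 9.71 in knock-in hearts, a difference of 0.19 with no overlap (95% interval −0.09 to 0.47, limma adjusted p = 0.535). Without knock-in replicate 2 it was 0.11, and after quantile normalisation also 0.11. Ndufaf1, a chaperone of membrane arm assembly, read 10.52 and 10.41 against 10.57 and 10.60, a difference of 0.12 with no overlap.

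Ndufaf5, which hydroxylates the core subunit Ndufs7, had the lowest difference of all members. It read 9.51 and 9.45 in wild-type and 9.34 and 9.33 in knock-in hearts, with no overlap and a difference of −0.14 (95% interval −0.39 to 0.11, limma adjusted p = 0.589). Ndufaf8, a partner of Ndufaf5, read 12.37 and 12.18 against 12.13 and 12.24, a difference of −0.09 with overlapping groups, and 0.01 without wild-type replicate 1. Ndufaf2 and Ndufaf3 differed by −0.00 and −0.02. For Ndufaf4 the wild-type arrays read 10.49 and 10.87 and enclosed the knock-in values of 10.70 and 10.80.

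Probe sets other than the brightest reached farther from 0. Of the 5 member probe sets that differed by over 0.2 in size, all were higher in the knock-in hearts and 4 were not the brightest of their gene. For Ndufb5 the second probe set read 12.28 and 12.40 in wild-type and 12.79 and 12.55 in knock-in hearts, a difference of 0.33 (95% interval 0.03 to 0.64, limma adjusted p = 0.458), where the brightest gave 0.07. For Ndufb6 the second read 11.98 and 11.87 against 12.34 and 12.05, a difference of 0.27 (adjusted p = 0.489), where the brightest gave 0.00. For Ndufaf4 the second differed by 0.28, with wild-type replicate 1 at 9.38 and the other 3 arrays between 9.95 and 9.99.

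In the 22 genes with several probe sets, the brightest had a median absolute difference of 0.04 and the 44 others 0.07, or 0.06 over the 38 others with a mean of at least 6. Over the whole array it was 0.13 for the brightest probe set of each gene and 0.13 for the 16752 others. Probe sets had opposite signs in 13 of the 22 genes. Among all 88, the knock-in arrays lay wholly above the wild-type arrays for 23 and wholly below for 14, together 42%, against 45.2% of all probe sets.

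**Figure D3:**
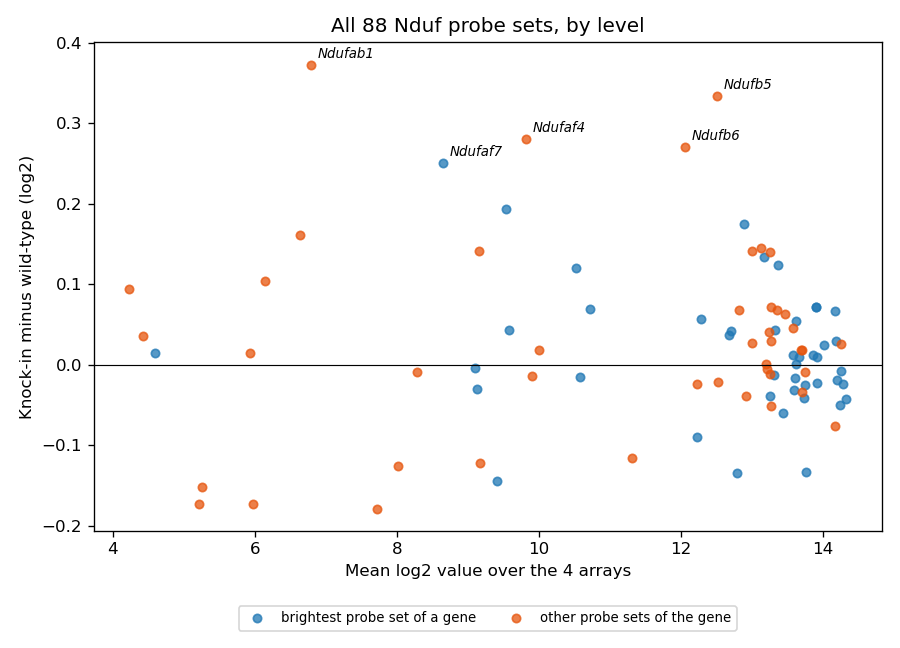
Difference between knock-in and wild-type hearts (log2, vertical axis) against the mean log2 value over the 4 arrays (horizontal axis) for all 88 Nduf probe sets; blue points are the brightest probe set of each of 44 genes and orange points the 44 others. The 5 named points are those past 0.2, and 4 of them are orange.

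Genes of complex I assembly with other names, a list of 16 of which 15 were measured, had a median of 0.08 and a range from −0.11 to 0.20. None passed the test in either direction, and 0 had an unadjusted p under 0.05, against 10.2% of all genes. Tmem126b, a factor of membrane arm assembly, differed by 0.20 (limma adjusted p = 0.554), and Timmdc1, another, by 0.13. Aifm1, a mitochondrial oxidoreductase, differed by 0.13. In the deposited values 13 were higher and 2 lower, and also with the arrays shifted to 1 median. After quantile normalisation it was 7 and 8, and after cyclic loess 8 and 7. Of all genes, 46.9%, 59.9%, 44.8% and 48% were higher, in the same order of settings.

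In the other complexes of the chain, medians were 0.02 for 4 genes of complex II, 0.01 for 9 of complex III, 0.01 for 13 of complex IV and 0.04 for 14 of ATP synthase. No gene of these lists passed the test in either direction. At an unadjusted p under 0.05 there was 1, Cox7c of complex IV, against 10.2% of all genes. Its probe set read 6.18 and 6.12 in wild-type and 6.67 and 6.63 in knock-in hearts, a difference of 0.50 (limma adjusted p = 0.453). The mean of this probe set, 6.40, was the lowest of complex IV, where the median level was 14.33. A second Cox7c probe set differed by 0.02. The gene of complex IV with the lowest difference, the subunit isoform Cox4i2, differed by −0.31 without overlap between the groups (limma adjusted p = 0.489).

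Genes that drive the transcription of respiratory genes spread wider than the members, from −0.25 to 0.30 over 10 genes with a median of 0.05. Their median absolute difference was 0.16, against 0.13 over all genes. Their median level was 9.98, against 13.51 for the members, and their median gap between the wild-type arrays 0.23, against 0.06. Between the knock-in arrays this gap was 0.036, against 0.043 for the members. None passed the test in either direction, with 0 at an unadjusted p under 0.05, against 10.2% of all genes. Tfam, which packages and transcribes mitochondrial DNA, read 9.00 and 9.29 in wild-type and 9.41 and 9.42 in knock-in hearts, a difference of 0.27 (limma adjusted p = 0.487). The coactivator gene Ppargc1a read 10.57 and 10.49 against 10.30 and 10.34, a difference of −0.21 (adjusted p = 0.492), and the 4 remaining Ppargc1a probe sets gave −0.11 to 0.12. Its relative Ppargc1b differed by −0.25 (adjusted p = 0.506). Nrf1 and Yy1, whose motifs are given above, differed by −0.10 and −0.17, and Esrra, an estrogen-related receptor gene, by −0.02.

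**Figure D4:**
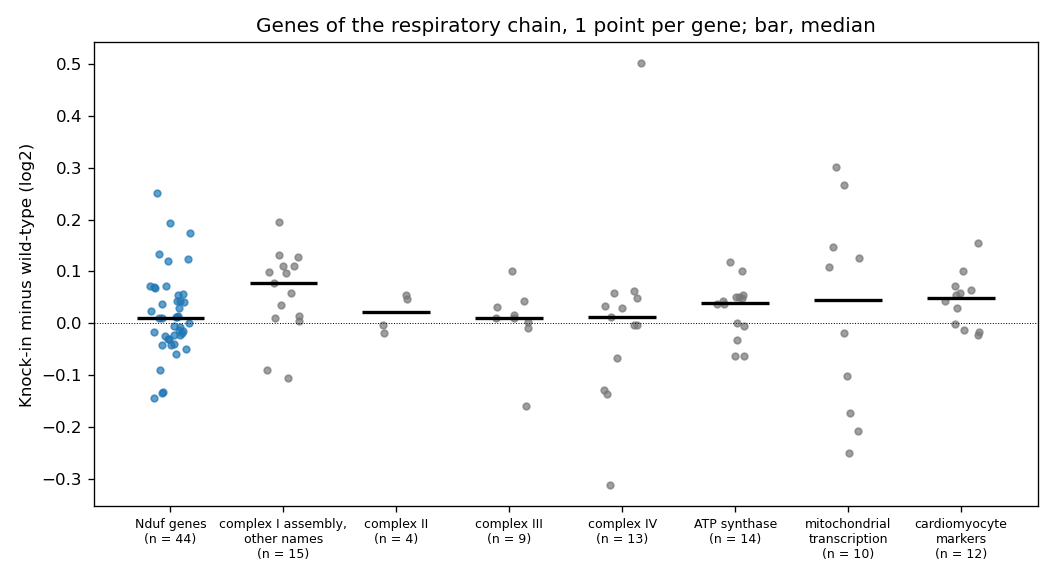
Difference between knock-in and wild-type hearts (log2, vertical axis) for each gene of the Nduf family and of 7 other lists, 1 point per gene by its brightest probe set, with the list's median as a bar. The medians of the Nduf genes and of complexes II, III and IV lie between 0.01 and 0.02, and the point at 0.50 is Cox7c, by a probe set with a mean of 6.40.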

How the data were processed

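The deposited log2 values are RMA summaries (background correction, quantile normalisation and summary of probes) by the authors. Affymetrix Expression Console is the tool named in the submitters' processing notes. Per the labels, normalisation of the wild-type group took in no arrays but these knock-in ones. Software version and filters: not given in the sources used here. Of 45101 probe sets, 64 controls were left out. Genes were named from the array's annotation, by probe sets with 1 symbol.

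Differences were fitted over all 45037 probe sets with limma 3.58.1 in R 4.3.3 (lmFit, eBayes, no covariate), with Benjamini-Hochberg adjustment and a threshold of 0.05. The fit had 2 residual degrees of freedom and a prior of 4.54. It was tested on simulated data. Only 2 arrays a group limit the precision. Array signals flatten at the bright end, and its part here was not tested. The sources used here name no scan batch.

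The rule for genes described in full took core subunits, the 5 highest and 5 lowest differences, probe sets at an unadjusted p under 0.05, genes whose probe sets spanned over 0.5, Ndufa4, Ndufa4l2 and Ndufab1; others are given by their values. Members, lists and rules were chosen with earlier results of these data known. Alternatives covered the prior, dim and cross-hybridising probe sets, scaling, array weights, the replicate block, each array left out, the threshold and the mean of probe sets. Promoters were searched in Python 3.11.15.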

Additional observations from a re-analysis of the deposited data

How the results depend on the processing

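In each of 15 alternative settings 0 Nduf genes passed limma's test. Of 279 values recomputed for 20 named genes, 127 equal the deposited-value result, since 5 settings cannot move a difference of 2 against 2 arrays and others left those probe sets as they were. Of the 152 others, 129 had the same direction and 23 the opposite. Adjusted p (limma) ran from 0.410 to 0.998 with all arrays in. With 1 left out, a genotype has a single array that is assumed to vary like the other group, so that a gene missing the threshold there says little. The median difference of the members, 0.01 in the deposited values, was 0.070 with the arrays shifted to 1 median, −0.020 after quantile normalisation and −0.037 after cyclic loess, and −0.01 to 0.03 with 1 array left out. The count over all probe sets, 3, was 11 with the arrays shifted to 1 median, 7 when probe sets were averaged per gene, 5 at an adjusted p of 0.1, 1 where the mean had to reach 7, and 0 to 2 with 1 array left out, 0 without knock-in replicate 1. The cause was not tested.

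Signs turned in 9 genes. The shift to 1 median moved every difference by the same amount, and the cause in the other settings was not tested. With the arrays shifted to 1 median Ndufs1 was 0.048, Ndufa7 0.00074, Ndufs7 0.044 and Ndufs8 0.035. After quantile normalisation Ndufs3 was −0.0012, Ndufv2 −0.0029 and Ndufa4l2 −0.037, and after cyclic loess −0.036, −0.037 and −0.034. Without probe sets that may cross-hybridise Ndufs8 was 0.067 and Ndufab1 −0.12. With probe sets averaged, Ndufs7 was 0.028 and Ndufab1 −0.0016. With 1 array left out the ranges were −0.033 to 0.0081 for Ndufs1, −0.076 to 0.043 for Ndufs7, −0.19 to 0.0082 for Ndufaf8, −0.027 to 0.046 for Ndufv2 and −0.028 to 0.11 for Ndufa4l2.

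With the replicate number as a block, which cannot move a balanced difference, 4 probe sets and 0 Nduf genes were called, and the limma adjusted p of Ndufaf7 was 0.448. The deviations of arrays with the same number correlated at 0.08, and only their number ties them. With 2 arrays a group, the 95% intervals of all 44 representative probe sets included 0 in the reported fit, and differences under the median half-width of 0.25 are not resolved for most members.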
